A study of Mus musculus with 23 samples.

Results

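The genes described are Dicer1, Drosha, Dgcr8, Xpo5, Tarbp2 and Ago2, which encode the core proteins that make and load microRNAs. They were taken by name from the expression table, where all 6 were found under these symbols among 22784 genes. All 6 were also among the 14242 genes with at least 1 FPKM (fragments scaled to transcript length and to the mapped total) in at least 1 group. MicroRNA genes are first copied into long hairpin-bearing transcripts. In the nucleus the nuclease Drosha and its RNA-binding partner Dgcr8 cut the hairpin out, and the export receptor Xpo5 carries it to the cytoplasm. There Dicer1 trims it to a short duplex, with Tarbp2 as partner, and an Argonaute protein such as Ago2 takes up a strand and uses it to find messenger RNAs. Dicer1 also cuts long double-stranded RNA into endogenous siRNAs, a step that needs neither Drosha nor Dgcr8. In mouse oocytes this siRNA branch is known to matter more than microRNAs, and a short oocyte form of Dicer1 is transcribed from a retrotransposon promoter inside the gene.

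Poly(A) RNA had been sequenced from 23 mouse samples in 8 groups. The culture route, from the strain cross C57BL/6 X 129, held female embryonic stem (ES) cells in 2i+LIF medium and primordial germ cell-like cells (PGCLCs) after 6 days of induction from female EpiLCs and cell sorting. It went on to PGCLCs reaggregated for 3 days with somatic cells of female E12.5 gonads, secondary follicle oocytes from reaggregates kept for 21 days and given the antiestrogen ICI182780 for part of that time, and metaphase II (MII) oocytes. The last came after 11 days of follicle culture with FSH, at first with BMP15 and GDF9, and 16 hours of maturation with FSH, EGF and hCG. The animal groups, all B6D2F1, were E12.5 primordial germ cells (PGCs) and secondary follicle oocytes of 8-day-old pups, both sorted by BVSC transgenes, and MII oocytes of females aged 8 weeks. Strain and route cannot be told apart. The day 6 PGCLCs had 2 samples and the other groups 3 each, but the table gives 1 FPKM value per gene and group. No spread between samples, test or read depth can therefore be given, and every difference is described by its size alone. Input was 10000 to 13200 cells for ES cells, 10000 for day 6 PGCLCs and 5300 to 15000 for reaggregated PGCLCs. On both routes it was 337 to 812 for secondary follicle oocytes and 99 to 134 for MII oocytes. Input thus differed with stage, and its part in low values at MII was not tested.

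A few properties of the whole table bear on these genes. Values per group summed to 616260 FPKM in in vitro MII oocytes and 975407 in in vivo MII oocytes, against 268720 to 349772 in the other 6 groups. The 100 highest genes held 32.5% and 37.3% of the sum in in vitro and in vivo MII oocytes, and 18.7% to 25.9% elsewhere, so comparisons with MII oocytes depend on how groups are scaled. Poly(A) selection may also capture transcripts with short tails less, which neither scaling nor a share within a group removes. Whether tail length plays a part in the values at MII was not tested. Differences are given as log2 ratios of FPKM + 1, which understate changes of genes near 0, and a gene counts as higher or lower at 2-fold and beyond. As a sum, growing-oocyte markers were high in the oocyte groups and low in the others. Of 5 growing-oocyte markers (Zp3, Gdf9, Bmp15, Figla, Nobox) the summed level was 8656 to 11976 FPKM in the 4 oocyte groups and 3.04 to 7.97 in the 4 others. Gdf9 made up most of the sum at MII (6768 FPKM in in vitro and 11132 in in vivo MII oocytes). Zp3 had 739 and 79.8 FPKM there, against 5094 in in vitro and 5544 in in vivo secondary follicle oocytes. The 3 mature-oocyte markers (Mos, Btg4, Ccnb1) summed to 6875 and 13348 FPKM in in vitro and in vivo MII oocytes. They summed to 640 to 728 in secondary follicle oocytes and 32.5 to 40.7 in the others. The 9 granulosa and cumulus cell markers summed to 62.9 FPKM in in vitro MII and 60.9 in in vivo MII oocytes, against 10.5 to 27.4 in the other groups, with Amh and Foxl2 at or under 1.69 FPKM in all 8. The 7 gonadal stroma markers summed to 94.0 and 67.6 FPKM in in vitro and in vivo MII oocytes and to 12.0 to 198 in the others, with Gata4 as the main part at MII (76.7 and 64.8 FPKM) and Vim in ES cells (197 FPKM). Wt1 and Col3a1 were listed at 0 in in vivo MII oocytes, and at 0.0345 and 0.0113 FPKM in in vitro MII oocytes. The 5 blood and endothelium markers summed to 9.55 to 117 FPKM, nearly all of it from Pecam1, and Hbb-y was listed at 0 outside E12.5 PGCs. What these markers contribute to the values below was not tested. In pooled cells, fewer cells of a kind and less RNA per cell cannot be told apart.

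The first sequences shown lie inside a member. Dgcr8 spans bases 18253948 to 18289246 of chromosome 16 (minus strand, GRCm38, the mm10 build) and holds the hairpins of miR-1306 and miR-3618 on its own strand. Such hairpins in Dgcr8 RNA are known in mammals as a place where Drosha and Dgcr8 cut and so limit Dgcr8 itself. The mature microRNAs, from RefSeq for GRCm38.p6, are printed 5′ to 3′ with the seed (bases 2 to 8) in capitals.
mmu-miR-1306-5p: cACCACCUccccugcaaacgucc
mmu-miR-1306-3p: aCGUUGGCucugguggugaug
mmu-miR-3618-5p: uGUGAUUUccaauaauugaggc
mmu-miR-3618-3p: cUACAUUAaugaaaagagcaau
The 4 seeds differ from each other. The table has 0 rows named as microRNAs, so their own levels are not analysed here.

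The next sequences are promoters of genes with unlike profiles. Dicer1 was higher and Dgcr8 lower in growing oocytes than in germ cells. The neighbouring Argonaute genes Ago3 and Ago1 differed in where they were high, Ago3 in MII oocytes and Ago1 before the follicle. Each runs from 250 bases before to 50 after the RefSeq start in GRCm38.p6, 5′ to 3′ along the gene. Capitals mark CCAAT and GGGCGG on either strand (ATTGG and CCGCCC on the opposite one), and no match of one overlaps a match of the other.
Dicer1: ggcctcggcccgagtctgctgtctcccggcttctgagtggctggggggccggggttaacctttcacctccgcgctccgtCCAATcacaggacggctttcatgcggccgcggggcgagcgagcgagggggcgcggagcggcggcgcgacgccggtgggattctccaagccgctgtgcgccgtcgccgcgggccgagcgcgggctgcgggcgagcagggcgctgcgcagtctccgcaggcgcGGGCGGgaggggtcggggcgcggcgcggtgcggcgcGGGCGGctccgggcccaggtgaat
Dgcr8: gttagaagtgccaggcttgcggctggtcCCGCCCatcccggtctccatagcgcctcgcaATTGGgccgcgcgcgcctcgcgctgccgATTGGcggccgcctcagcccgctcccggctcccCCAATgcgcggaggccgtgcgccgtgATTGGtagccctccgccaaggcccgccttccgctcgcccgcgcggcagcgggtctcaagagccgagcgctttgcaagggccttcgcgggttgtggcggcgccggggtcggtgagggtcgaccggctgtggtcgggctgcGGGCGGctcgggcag
Ago3: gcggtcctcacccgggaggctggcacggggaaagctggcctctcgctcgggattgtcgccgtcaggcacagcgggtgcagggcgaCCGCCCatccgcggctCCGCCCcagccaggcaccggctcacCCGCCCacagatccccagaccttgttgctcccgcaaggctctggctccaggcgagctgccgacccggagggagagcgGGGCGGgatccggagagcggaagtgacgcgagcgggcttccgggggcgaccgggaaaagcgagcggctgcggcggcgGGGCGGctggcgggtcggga
Ago1: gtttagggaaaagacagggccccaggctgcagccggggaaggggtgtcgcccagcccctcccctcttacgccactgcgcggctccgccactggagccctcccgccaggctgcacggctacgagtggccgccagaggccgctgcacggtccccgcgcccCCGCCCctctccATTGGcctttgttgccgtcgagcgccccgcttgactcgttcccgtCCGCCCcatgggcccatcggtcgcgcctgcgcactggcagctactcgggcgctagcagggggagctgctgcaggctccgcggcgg
They lie at chr12:104751903-104752202, chr16:18289119-18289418, chr4:126429493-126429792 and chr4:126468582-126468881, all on the minus strand. CCAAT matched 1 time in Dicer1, 4 times in Dgcr8, 0 times in Ago3 and 1 time in Ago1, and GGGCGG 2, 2, 5 and 2 times in the same order. Among 32851 RefSeq promoters of this length, 37.4% held CCAAT and 35.7% held GGGCGG. The dinucleotide CG occurred 49 times in Dicer1, 43 in Dgcr8, 37 in Ago3 and 31 in Ago1, against a median of 7 over all promoters. Another RefSeq entry of Ago1, not printed here (chr4:126468534-126468833), held 38. TATAAA and the homeobox motif TAATTG, found in 13.6% and 8.00% of all promoters, had 0 matches in these 4. The windows are those of the annotated start, so they say nothing of a start used in oocytes. Neither the CCAAT nor the GGGCGG count separated Dicer1 and Ago3 from Dgcr8 and Ago1. TATAAA and TAATTG, with 0 matches, could not do so, and 4 promoters are too few to speak of motifs in general.

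Dicer1 (chromosome 12, bases 104687742 to 104751952, minus strand) was the member that was higher in oocytes. Its level was 11.9 FPKM in ES cells, 14.6 in day 6 PGCLCs, 14.4 in reaggregated PGCLCs, 65.0 in in vitro secondary follicle oocytes and 144 in in vitro MII oocytes. In animals it had 15.5 FPKM in E12.5 PGCs, 87.6 in secondary follicle oocytes and 233 in MII oocytes. All 4 oocyte groups thus stood above all 4 earlier groups, which lay close together. The table gives 1 value per gene, so the full-length and the oocyte form of Dicer1 cannot be told apart.

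Drosha, the nuclear nuclease (chromosome 15, bases 12824815 to 12935291, plus strand), stood at 43.4 FPKM in ES cells, 38.0 in day 6 PGCLCs, 37.0 in reaggregated PGCLCs, 50.3 in in vitro secondary follicle oocytes and 15.2 in in vitro MII oocytes. In animals it had 38.4 FPKM in E12.5 PGCs, 63.5 in secondary follicle oocytes and 6.34 in MII oocytes. Its level was similar in every group up to the secondary follicle and lowest in both MII groups. Dgcr8, its partner, stood at 14.5 FPKM in ES cells, 41.7 in day 6 PGCLCs, 45.5 in reaggregated PGCLCs, 10.2 in in vitro secondary follicle oocytes and 4.02 in in vitro MII oocytes. In animals Dgcr8 had 49.9 FPKM in E12.5 PGCs, 13.1 in secondary follicle oocytes and 5.70 in MII oocytes. Dgcr8 was thus high in the 3 germ cell groups before oocyte growth, on both routes, and low on either side of them. The level of Dgcr8 over that of Drosha, a quotient that needs no scaling between groups, was 0.335 in ES cells, 1.10 in day 6 PGCLCs, 1.23 in reaggregated PGCLCs, 0.202 in in vitro secondary follicle oocytes and 0.264 in in vitro MII oocytes. In animals it was 1.30 in E12.5 PGCs, 0.206 in secondary follicle oocytes and 0.898 in MII oocytes. The RNAs of the pair were therefore not kept in a fixed proportion.

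Xpo5, the export receptor of hairpin precursors (chromosome 17, bases 46202782 to 46243598, plus strand), stood at 35.8 FPKM in ES cells, 51.6 in day 6 PGCLCs, 32.9 in reaggregated PGCLCs, 16.4 in in vitro secondary follicle oocytes and 3.32 in in vitro MII oocytes. In animals it had 37.6 FPKM in E12.5 PGCs, 16.3 in secondary follicle oocytes and 1.49 in MII oocytes. It was lower at each step from germ cell to MII oocyte on both routes. Tarbp2, the double-stranded RNA-binding partner of Dicer1 (chromosome 15, bases 102518192 to 102523676, plus strand), stood at 10.1 FPKM in ES cells, 12.7 in day 6 PGCLCs, 11.6 in reaggregated PGCLCs, 16.8 in in vitro secondary follicle oocytes and 3.95 in in vitro MII oocytes. In animals Tarbp2 had 12.9 FPKM in E12.5 PGCs, 15.4 in secondary follicle oocytes and 0.271 in MII oocytes, the lowest value of any member in any group. Ago2, the Argonaute with slicing activity, stood at 28.3 FPKM in ES cells, 12.7 in day 6 PGCLCs, 10.5 in reaggregated PGCLCs, 5.61 in in vitro secondary follicle oocytes and 0.806 in in vitro MII oocytes. In animals Ago2 had 12.4 FPKM in E12.5 PGCs, 8.52 in secondary follicle oocytes and 1.20 in MII oocytes. Along the culture route each later stage had less Ago2 than the one before, and so it was along the 3 animal stages.

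**Figure D1:**
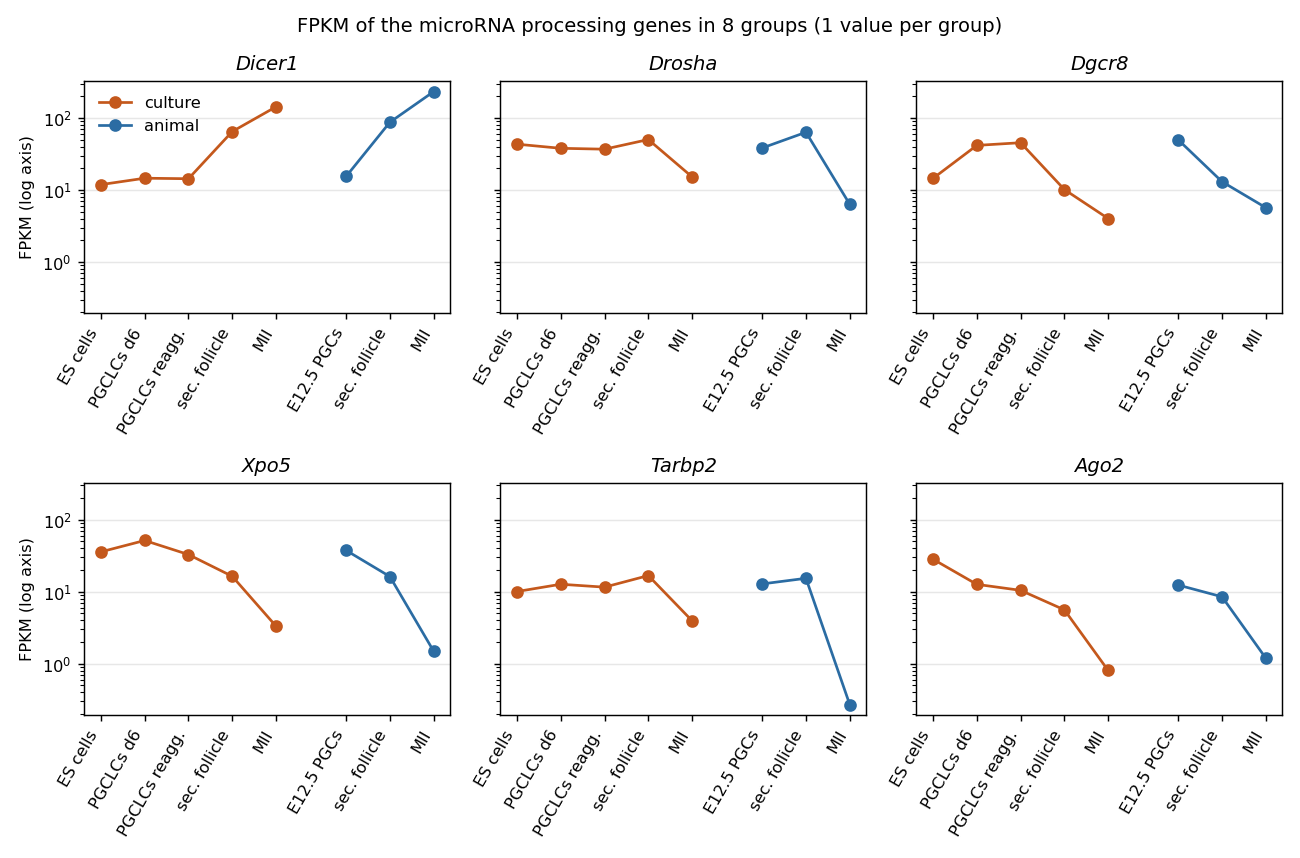
FPKM of the 6 genes (log axis) in the 5 culture groups and the 3 animal groups, 1 point per group with no error bar because the table has no values per sample. Dicer1 reaches 144 FPKM in in vitro MII oocytes and 233 in in vivo MII oocytes, while the other 5 end lowest at MII.

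The order of the 6 genes within a group, which does not depend on scaling between groups, turned over during oocyte growth. Drosha, Xpo5 or Dgcr8 stood first in the 4 groups before the follicle, where Dicer1 made up 8.26% to 9.47% of the summed FPKM of the 6 genes. Dicer1 stood first in all 4 oocyte groups, with 39.6% in in vitro and 42.9% in in vivo secondary follicle oocytes, and 84.0% in in vitro and 94.0% in in vivo MII oocytes. Dicer1 over Drosha was 0.274 to 0.402 in the 4 earlier groups. It was 1.29 in in vitro and 1.38 in in vivo secondary follicle oocytes, and 9.42 in in vitro and 36.8 in in vivo MII oocytes. Dicer1 over Ago2 was 178 in in vitro and 195 in in vivo MII oocytes, against 0.420 in ES cells. Among all tested genes of the same group, Dicer1 lay at the 63.1st percentile in ES cells, the 92.6th in in vitro secondary follicle oocytes and the 93.9th in in vitro MII oocytes. In animals Dicer1 lay at the 70.9th percentile in E12.5 PGCs, the 95.2nd in secondary follicle oocytes and the 94.1st in MII oocytes. By rank, then, Dicer1 stood about as high in secondary follicle as in MII oocytes. Tarbp2 lay at the 24.1st percentile in in vivo MII oocytes and the 68.8th in in vivo secondary follicle oocytes. Ago2 lay at the 39.7th in in vivo MII oocytes and the 56.5th in in vivo secondary follicle oocytes. In culture Tarbp2 lay at the 50.8th in MII and the 70.6th in secondary follicle oocytes, and Ago2 at the 27.8th in MII and the 48.2nd in secondary follicle oocytes, so that Tarbp2 stood below Ago2 at MII in the animal and above it in culture.

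Day 6 PGCLCs were set against the ES cells they came from, and the members split. Of 6 members 1 was at least 2-fold higher, where 9.63% of all tested genes were, and 1 was at least 2-fold lower, where 12% of all genes were (21.6% either way). The higher member was Dgcr8, with 41.7 FPKM in day 6 PGCLCs against 14.5 in ES cells (log2 ratio 1.46). The lower was Ago2, with 12.7 FPKM in day 6 PGCLCs against 28.3 in ES cells (-1.10), which stayed within 2-fold with a pseudocount of 5 (-0.91). The log2 ratios of the other 4 lay between -0.19 for Drosha and 0.51 for Xpo5. Prkra, which encodes the other double-stranded RNA-binding partner of Dicer1, had 2.19 FPKM in day 6 PGCLCs against 8.70 in ES cells (-1.60). Tarbp2 over Prkra was therefore 5.80 in day 6 PGCLCs and 1.16 in ES cells. Of 15 effector proteins of silencing, 1 was higher and 1 lower. They were Tnrc6c, a scaffold that Argonaute binds, with 20.1 FPKM in day 6 PGCLCs against 9.14 in ES cells, and Ajuba, a LIM-domain protein, with 12.0 against 27.5. Of 10 Microprocessor helpers 0 were past 2-fold.

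No member passed 2-fold on reaggregation with gonadal cells. Of 6 members 0 were past it in reaggregated against day 6 PGCLCs, where 10.2% of all tested genes were, 5.15% higher and 5.04% lower. Over all genes the split of 733 higher and 718 lower became 1326 and 532 with equal sums and 111 and 273 with a pseudocount of 5. The largest log2 ratio in size was that of Xpo5, -0.63, with 32.9 FPKM in reaggregated against 51.6 in day 6 PGCLCs. Prkra had 3.91 FPKM in reaggregated against 2.19 in day 6 PGCLCs (0.62). Of the effector proteins, Mov10, an RNA helicase that binds Argonaute, was at least 2-fold lower, with 45.6 FPKM in reaggregated against 99.9 in day 6 PGCLCs (-1.12), but not with equal sums (-0.88).

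At oocyte growth, from germ cell to secondary follicle oocyte, Dicer1 was at least 2-fold higher and Dgcr8 at least 2-fold lower on both routes. In culture 1 of 6 members was at least 2-fold higher (25.2% of all tested genes were) and 1 at least 2-fold lower (26.4% were, and 51.6% either way). With groups scaled to equal sums the split over all genes was 3138 higher and 4982 lower, in place of 3594 and 3755. Dicer1 had 65.0 FPKM in in vitro secondary follicle oocytes against 14.4 in reaggregated PGCLCs (log2 ratio 2.10), and Dgcr8 had 10.2 against 45.5 (-2.06). Xpo5 had 16.4 FPKM in in vitro secondary follicle oocytes against 32.9 in reaggregated PGCLCs, a plain ratio of 2.00. On the FPKM + 1 scale this was just short of 2-fold (-0.96), so Xpo5 was not counted. It passed 2-fold with quantile normalization (-1.50) and with equal sums (-1.34), so the call on Xpo5 in culture depended on the setting. In the animal the same step had 1 of 6 members higher, against 24.3% of all genes, and 2 lower, against 25.9% (50.2% either way). Dicer1 had 87.6 FPKM in in vivo secondary follicle oocytes against 15.5 in E12.5 PGCs (2.43), Dgcr8 had 13.1 against 49.9 (-1.85) and Xpo5 16.3 against 37.6 (-1.16). As reported, the shares of called members were below those of all genes, except that 2 of 6 lower in the animal was somewhat above 25.9%. Under other scalings more members were lower in culture, and with equal sums so were more of all genes. With 6 members these counts do not set the list as a whole apart in growing oocytes. Drosha and Tarbp2 were within 2-fold on both routes, at 0.43 and 0.50 in culture and 0.71 and 0.24 in the animal. Ago2 was also within 2-fold as reported, at -0.79 in culture and -0.49 in the animal, but past it with equal sums in culture.

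Helpers of the Microprocessor, the complex of Drosha and Dgcr8, were mostly lower in growing oocytes. In culture 8 of 10 were at least 2-fold lower and 0 higher (median log2 ratio -1.81), and likewise 8 and 0 in the animal (median -1.47). The median of all tested genes was -0.09 in both. They included Khsrp, an RNA-binding protein of the terminal loop, with 6.00 FPKM in in vitro secondary follicle oocytes against 41.9 in reaggregated PGCLCs (-2.61). For these lists too, the shares of all tested genes in culture were 25.2% higher and 26.4% lower, with 24.3% and 25.9% in the animal. Of 15 effector proteins 2 were higher and 7 lower in culture, and 4 higher and 6 lower in the animal, where equal sums left 2 higher and gave 8 lower. Mov10 had 3.32 FPKM in in vitro secondary follicle oocytes against 45.6 in reaggregated PGCLCs (-3.43), and Ajuba 0.0671 against 10.3 (-3.41). Of 9 genes of microRNA tailing and turnover 0 were higher and 6 lower in culture, and 0 and 5 in the animal. The lowest ratio in culture was that of the uridyltransferase gene Zcchc11 (also called Tut4), with 0.332 FPKM in in vitro secondary follicle oocytes against 15.2 in reaggregated PGCLCs (-3.60). Of 5 genes reported in the literature as targets of oocyte endogenous siRNAs, 2 were higher and 1 lower on each route. Pdzd11 had 108 FPKM in in vitro secondary follicle oocytes against 16.4 in reaggregated PGCLCs, and the kinesin gene Kif4 89.3 against 14.4. Hdac1 went the other way, with 1.97 FPKM against 11.8 (-2.11). As reported, Ppp4r1 and Rangap1 were within 2-fold on both routes. A link of these genes to the level of Dicer1 was not tested.

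At the last step, from secondary follicle to MII oocyte, all 6 members were past 2-fold on both routes, 5 lower and 1 higher. Over all tested genes 28.6% were at least 2-fold lower and 23.9% higher in culture (52.5% either way), and 33.1% lower and 28% higher in the animal (61.1% either way). The member median was -1.75 in culture and -2.45 in the animal, against -0.08 and -0.09 over all genes. Drosha had 15.2 FPKM in in vitro MII oocytes against 50.3 in in vitro secondary follicle oocytes (log2 ratio -1.66), and 6.34 in in vivo MII oocytes against 63.5 in in vivo secondary follicle oocytes (-3.14). Tarbp2 had 3.95 FPKM against 16.8 in culture (-1.85) and 0.271 against 15.4 in the animal (-3.69), each MII value given first. These were the members with the lowest ratios in the animal. Xpo5 was lower by -2.01 in culture and -2.79 in the animal on the log2 scale, and Ago2 by -1.87 and -2.12.

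For Dicer1 and Dgcr8 the last step depended on the scaling. Dicer1 had 144 FPKM in in vitro MII oocytes against 65.0 in in vitro secondary follicle oocytes (1.13), and 233 in in vivo MII against 87.6 in in vivo secondary follicle oocytes (1.40). With equal sums the log2 ratios of Dicer1 were 0.32 in culture and -0.07 in the animal, and with quantile normalization 0.26 and -0.25, so a further gain at MII did not hold across scalings. Dgcr8, at -1.15 in culture and -1.07 in the animal, came to -0.56 and -0.09 with median centring. Drosha, Xpo5, Tarbp2 and Ago2 stayed at least 2-fold lower on both routes under all 3 scalings. Counted over all genes, equal sums gave 2131 higher and 5619 lower in culture and 2170 and 6499 in the animal, and median centring 4767 and 2629 in culture and 6089 and 2858 in the animal, in place of 3409 and 4070, and 3988 and 4715. The median log2 ratio of all genes was then -0.50 in culture and -0.74 in the animal with equal sums, and 0.51 and 0.89 with centring.

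**Figure D2:**
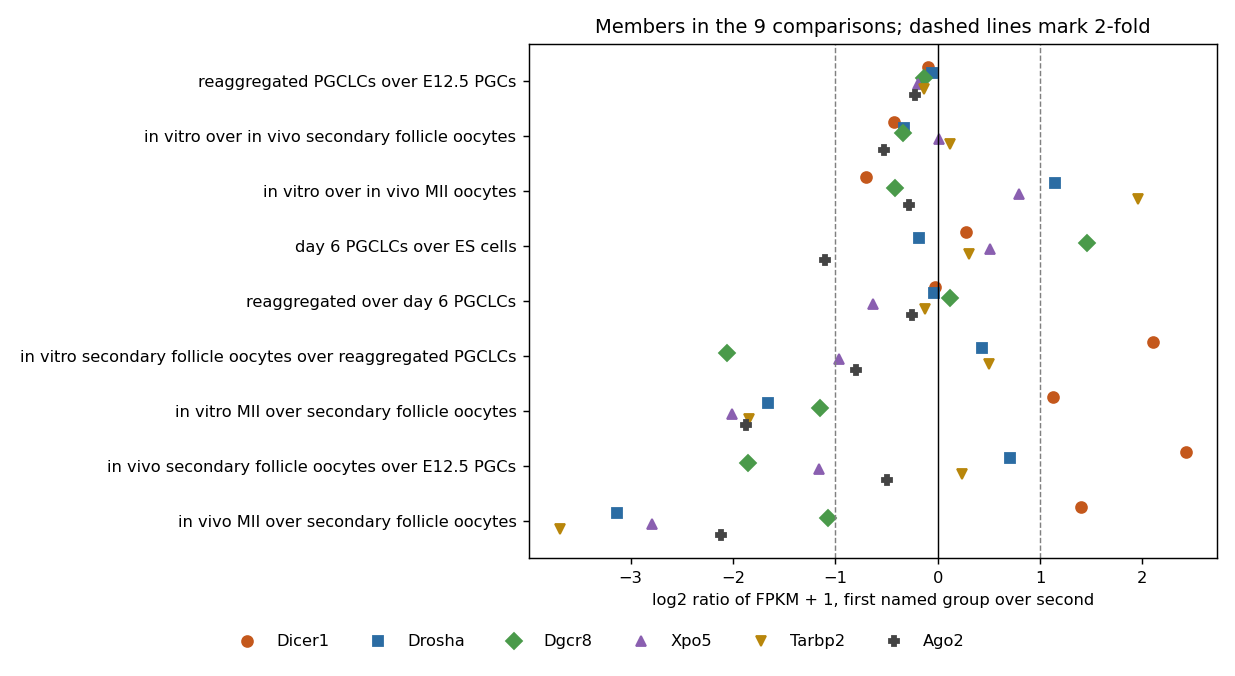
Log2 ratios of FPKM + 1 for the 6 genes in the 9 comparisons of a pair of groups, the first named group over the second, with dashed lines at 2-fold. Points crowd around 0 for reaggregated PGCLCs over E12.5 PGCs and spread most for in vivo MII over secondary follicle oocytes, from -3.69 for Tarbp2 to 1.40 for Dicer1.

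**Figure D3:**
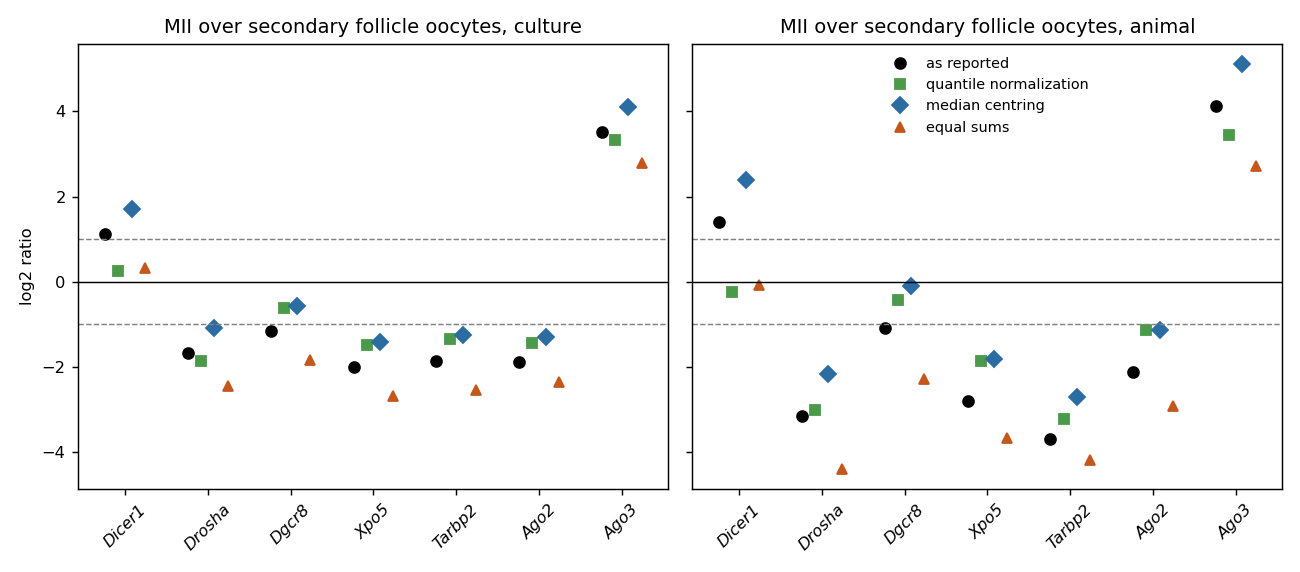
Log2 ratio of MII over secondary follicle oocytes for the 6 genes and Ago3 in culture (left) and in the animal (right), as reported and under 3 other scalings. In the animal Dicer1 lies at 1.40 as reported and at -0.07 with equal sums, while Ago3 stays above 2.7 on both sides under every scaling shown.

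The Argonaute genes changed places at this step. Ago3 stood at 1.88 FPKM in ES cells, 1.47 in day 6 PGCLCs, 1.98 in reaggregated PGCLCs, 3.22 in in vitro secondary follicle oocytes and 47.3 in in vitro MII oocytes. In animals Ago3 had 2.61 FPKM in E12.5 PGCs, 3.73 in secondary follicle oocytes and 81.5 in MII oocytes. Both MII groups stood far above the other 6. The log2 ratio of MII over secondary follicle oocytes was 3.52 in culture and 4.12 in the animal, and 2.78 and 2.73 with equal sums. Ago1 stood at 18.8 FPKM in ES cells, 14.1 in day 6 PGCLCs, 11.0 in reaggregated PGCLCs, 1.08 in in vitro secondary follicle oocytes and 0.660 in in vitro MII oocytes. In animals Ago1 had 11.9 FPKM in E12.5 PGCs, 0.417 in secondary follicle oocytes and 0.358 in MII oocytes, so it was already low in growing oocytes. Ago4 did not exceed 2.01 FPKM in any group.

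As a share of the summed FPKM of the 4 Argonaute genes, a measure free of scaling between groups, Ago3 made up 3.82% in ES cells, 5.17% in day 6 PGCLCs, 8.01% in reaggregated PGCLCs, 31.4% in in vitro secondary follicle oocytes and 96.7% in in vitro MII oocytes. In animals the share of Ago3 was 9.04% in E12.5 PGCs, 28.7% in secondary follicle oocytes and 98.1% in MII oocytes. The share of Ago2 was 57.6% in ES cells, 54.9% in in vitro and 65.6% in in vivo secondary follicle oocytes, and 1.65% in in vitro and 1.44% in in vivo MII oocytes. Ago3, Ago1 and Ago4 lie side by side on chromosome 4 on the minus strand, with 5455 bases between Ago3 (126331704 to 126429556) and Ago1 (126435012 to 126468583) in GENCODE M21. Ago2 is apart from them on chromosome 15, from 73095844 to 73184935. At MII this cluster thus held both the highest (Ago3) and the lowest (Ago4) of the 4 levels. The sources used here do not say how reads matching several Argonaute genes were assigned, so single values of these related genes are uncertain. The shares are also of poly(A)-selected RNA, and the part of tail length in them was not tested.

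**Figure D4:**
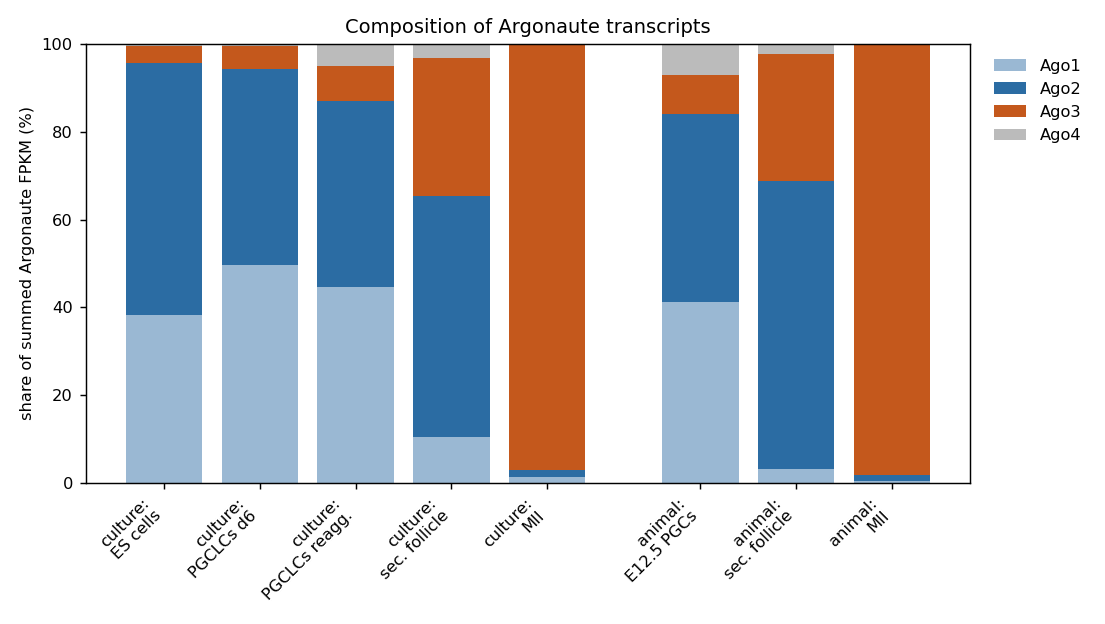
Share of each Argonaute gene in the summed FPKM of Ago1, Ago2, Ago3 and Ago4, in percent, for the 5 culture groups and the 3 animal groups (1 bar per group). Ago1 and Ago2 fill most of the bars before the follicle, and Ago3 makes up 96.7% of the in vitro and 98.1% of the in vivo MII bar.

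Other genes of the pathway went both ways at MII, a step at which the shares of all tested genes in culture were 23.9% higher and 28.6% lower, with 28% and 33.1% in the animal. Of 9 genes of tailing and turnover 6 were higher and 0 lower on each route, with a median of 1.94 in culture and 2.57 in the animal. With equal sums 5 were higher on each route, without the exonuclease gene Xrn1, and 1 was lower in culture and 2 in the animal. Lin28a, whose protein binds the let-7 precursor and blocks its processing, had 320 FPKM in in vitro MII oocytes against 20.7 in in vitro secondary follicle oocytes, and 467 in in vivo MII oocytes against 25.8 in in vivo secondary follicle oocytes. Papd4, a poly(A) polymerase, had 64.4 FPKM against 5.52 in culture and 92.0 against 5.24 in the animal, the MII value first. Of 10 Microprocessor helpers 5 passed 2-fold upward and 2 downward in culture, and 7 and 2 in the animal. The upward count depended on the scaling, with 2 in culture and 2 in the animal with equal sums, 4 and 5 with quantile normalization and 5 and 7 with median centring. With equal sums Ilf2, counted as higher in the animal, turned to lower. Khsrp had 389 FPKM in in vitro MII oocytes against 6.00 in in vitro secondary follicle oocytes, and 762 in in vivo MII against 9.16 in in vivo secondary follicle oocytes. Ipo8, an importin that binds Argonaute, had 441 FPKM in in vitro MII against 27.2 in in vitro secondary follicle oocytes, and 1115 in in vivo MII against 42.1 in in vivo secondary follicle oocytes. Lin28a, Papd4, Khsrp and Ipo8 stayed at least 2-fold higher under all 3 scalings on both routes.

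Chaperones that load Argonaute were lower for the most part. In culture 2 of 7 passed 2-fold upward and 4 downward (median -3.38), and in the animal 1 and 4 (median -4.30), against the same shares of all genes. With equal sums 1 passed upward in culture and 0 in the animal, where Dnaja2 in culture came to 0.49 and Ptges3 in the animal to 0.41. Hspa8, the constitutive heat shock protein 70, had 2.30 FPKM in in vitro MII against 53.4 in in vitro secondary follicle oocytes, and 1.21 in in vivo MII against 58.8 in in vivo secondary follicle oocytes. Fkbp4, a co-chaperone, had 4.02 FPKM against 51.4 in culture and 2.16 against 61.2 in the animal. Of the effector proteins 1 was higher and 6 lower in culture, and 2 and 7 in the animal, and with median centring 4 and 5 in culture and 5 and 4 in the animal. Ddx6, a helicase of repressed messages, had 1.59 FPKM in in vitro MII against 36.3 in in vitro secondary follicle oocytes, and 1.40 in in vivo MII against 57.6 in in vivo secondary follicle oocytes. The scaffolds Tnrc6a and Tnrc6b were within 2-fold at this step on both routes. Of 6 tested sensors of double-stranded RNA, Tlr3 was higher on both routes, with 3.56 FPKM in in vitro MII against 0.0899 in in vitro secondary follicle oocytes. Ddx58 was lower in culture, with 0.746 FPKM in in vitro MII against 3.01 in in vitro secondary follicle oocytes (-1.20), and within 2-fold with quantile normalization (-0.81) and median centring (-0.61). Of the 5 reported siRNA targets 4 were lower on each route and 0 higher, while Kif4 was within 2-fold. With median centring 2 were lower on each route, without Ppp4r1 and Hdac1, and with equal sums all 5 were, Kif4 then at -1.75 in culture and -2.07 in the animal.

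Culture and animal were close in these genes until MII. Between reaggregated PGCLCs and E12.5 PGCs 0 of 6 members were past 2-fold, where 2.18% of all tested genes were (1.39% higher, 0.786% lower), and their log2 ratios ran from -0.22 for Ago2 to -0.05 for Drosha. The split over all genes there was 198 higher and 112 lower, and 28 and 30 with a pseudocount of 5. Between in vitro and in vivo secondary follicle oocytes 0 of 6 were past 2-fold, where 2.4% of all genes were (1.74% higher, 0.66% lower), with ratios from -0.53 for Ago2 to 0.12 for Tarbp2. At shares this low 0 of 6 is near the background. Prkra differed more, with 1.89 FPKM in in vitro against 0.776 in in vivo secondary follicle oocytes. The plain ratio of these low values was 2.44, and on the FPKM + 1 scale Prkra did not pass 2-fold (0.70).

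Between in vitro and in vivo MII oocytes 2 of 6 members were at least 2-fold higher, against 12.4% of all tested genes, and 0 lower, against 9.45% (21.9% either way). Drosha had 15.2 FPKM in in vitro against 6.34 in in vivo MII oocytes (log2 ratio 1.14), and Tarbp2 had 3.95 against 0.271 (1.96). Xpo5 had 3.32 FPKM in in vitro against 1.49 in in vivo MII oocytes (0.80). Dicer1, Dgcr8 and Ago2 were on the other side of 0, with 144 against 233 FPKM (-0.70), 4.02 against 5.70 (-0.42) and 0.806 against 1.20 (-0.28). Over all genes 1772 were higher and 1346 lower, and these counts were 2385 and 168 with equal sums, 979 and 3112 with median centring, and 642 and 844 with a pseudocount of 5. Drosha stayed within 2-fold with a pseudocount of 5 (0.83), quantile normalization (0.69) and median centring (0.76), and Tarbp2 with a pseudocount of 5 (0.76). Among 61 companion genes 2 were higher and 8 lower. Of those 8, 2 still passed 2-fold with equal sums and 2 with quantile normalization, and of the 2 higher 0 did with median centring. Ago3 had 47.3 FPKM in in vitro against 81.5 in in vivo MII oocytes (-0.77). Beside this, 5 of 9 granulosa and cumulus markers were higher and 4 lower in in vitro than in in vivo MII oocytes, whatever the size, with sums of 62.9 and 60.9 FPKM. Inha had 19.3 FPKM in in vitro and 2.55 in in vivo MII oocytes, and Cyp19a1 27.1 and 42.2. Of 7 stroma markers 6 were higher and 1 lower, with sums of 94.0 and 67.6 FPKM. The part of such cells in the difference was not tested. Of 5 growing-oocyte markers 4 were higher and 1 lower in in vitro than in in vivo MII oocytes. Zp3 had 739 FPKM in in vitro and 79.8 in in vivo MII oocytes, and Gdf9, the lower one, 6768 and 11132. All 3 mature-oocyte markers were lower in in vitro MII oocytes, Btg4 with 5370 against 10543 FPKM. Of 4 ES cell markers (Nanog, Klf4, Zfp42, Esrrb) 4 were higher and 0 lower in in vitro MII oocytes. Nanog had 0.238 FPKM in in vitro and 0.0211 in in vivo MII oocytes, and Esrrb 15.6 and 12.3. Of 4 early germ cell markers (Prdm1, Dppa3, Nanos3, Dnd1) 2 were higher and 1 lower. Of 4 later ones (Ddx4, Dazl, Stra8, Sycp3) 2 were higher and 2 lower. How these markers relate to the member differences was not tested.

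The steps themselves were set against each other, as the log2 ratio in culture minus that in the animal. For growth 0 of 6 members differed by 2-fold, where 5.19% of all genes did (2.86% positive, 2.33% negative). For maturation 2 of 6 were at least 2-fold apart in the positive direction, against 12.3% of all genes, and 0 in the negative one, against 10.6% (22.9% either way). They were Drosha, with -1.66 in culture and -3.14 in the animal (difference 1.47), and Tarbp2, with -1.85 and -3.69 (difference 1.84). With a pseudocount of 5 the difference of Tarbp2 was 0.67, within 2-fold. Xpo5 had -2.01 and -2.79 (difference 0.78), and Dgcr8 -1.15 and -1.07 (difference -0.08). The ratios of Drosha and Tarbp2 were thus nearer 0 in culture, and each member's ratio had the same sign on both routes at both steps as reported, Dicer1 at maturation being the exception with quantile normalization and equal sums. Over all genes this count was 1753 positive and 1514 negative, and 2422 and 278 with equal sums, 944 and 3205 with median centring, and 624 and 958 with a pseudocount of 5.

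Members were also compared by the shape of their profile over the 8 groups, each centred on its own mean log2 level, with the root mean square difference as the measure. Drosha and Tarbp2 were the closest pair, 0.34 log2 units apart, and Xpo5 and Ago2 the next, at 0.58. Dicer1 was 2.29 to 3.02 units from each of the other 5 members, and closer to Ago3, at 0.95. Among 9026 other genes of at least 10 FPKM in their highest group, those nearest to Dicer1 were Surf4, a cargo receptor of the secretory pathway (0.15), Thsd7a (0.15) and the ubiquitin-conjugating enzyme gene Ube2d3 (0.16). Surf4 stood at 46.3 FPKM in ES cells, 245 in in vitro secondary follicle oocytes and 543 in in vitro MII oocytes. Nearest to Drosha were Fez2 (0.13), Otud5 (0.14) and Wfs1 (0.16), and to Tarbp2 Gtf2h5 (0.14) and Hn1 (0.15). Nearest to Xpo5 were Ddx20 (0.10), Cdc123 (0.12) and Phb (0.12), to Dgcr8 Polg (0.24), Mark1 (0.25) and B4galt5 (0.26), and to Ago2 Prdx3 (0.23), Rbfa (0.24) and Dolpp1 (0.25). The profiles of Dgcr8 and Ago2 thus had no neighbour as near as those of the other 4. These are likenesses over 8 group values that share each group's scaling, and by Pearson's correlation 3 of the 18 nearest genes kept a place among the nearest 3.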

How the data were processed

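Poly(A) RNA from 23 samples in 8 groups had been sequenced as directional libraries. Per the submitters' processing notes, TopHat2, Bowtie2 2.0.13, Cufflinks and Cuffdiff 2.2.1 were used with mm10; the sources used here do not say how samples were combined. The deposited table holds FPKM, 1 value per gene and group, for 22784 genes. Depth is unknown, and transcripts with short poly(A) tails may be captured less by poly(A) selection.

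Values were taken as log2(FPKM + 1). Genes with at least 1 FPKM in at least 1 group were kept (14242), and called at a log2 ratio of 1 or more in size. There is no test, since groups have 1 value. The 9 comparisons and 2 differences of steps came from the design. All 6 members are named, with all Argonautes and Prkra, up to 4 called genes per companion list and comparison, and the 3 genes nearest in profile with symbols that are not predicted or clone names, of which 1 is not reported here. Other genes were chosen after their values were seen. The members and lists were chosen with earlier results of these data known. Of 9 companion lists, 61 genes were tested. Of 11 microRNA host transcripts asked for, 3 were found (H19, Meg3, Rian). Gene coordinates are from GENCODE M21, and 9 of 10 promoters looked for were found in RefSeq (not Ago2). The steps were tested on simulated data. Python 3.11.15, pandas 2.3.3, NumPy 2.4.6 and matplotlib 3.10.9 were used.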

Additional observations from a re-analysis of the deposited data

How the results depend on the processing

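Of 396 values of the 66 log2 ratios of members under 6 other settings, 369 kept their direction and their side of 2-fold, 15 no longer reached 2-fold, 10 newly did and 2 turned. Both that turned were Dicer1 in in vivo MII over secondary follicle oocytes, at -0.25 with quantile normalization and -0.066 with equal sums. In in vitro MII over secondary follicle oocytes Dicer1 came to 0.26 with quantile normalization and 0.32 with equal sums, Dgcr8 to -0.75 with a pseudocount of 5, -0.61 with quantile normalization and -0.56 with median centring, and Ago2 to -0.87 with a pseudocount of 5. In in vivo MII over secondary follicle oocytes Dgcr8 came to -0.76 with a pseudocount of 5, -0.44 with quantile normalization and -0.091 with median centring. In in vitro over in vivo MII oocytes Drosha came to 0.83 with a pseudocount of 5, 0.69 with quantile normalization and 0.76 with median centring, and Tarbp2 to 0.76 with a pseudocount of 5. Newly past 2-fold there were Dicer1 at -1.08 with median centring, and Xpo5 at 1.10 with a pseudocount of 0.1, 1.16 with none and 1.01 with equal sums. In the difference of maturation steps Tarbp2 came to 0.67 with a pseudocount of 5, and Xpo5 to 1.09 with a pseudocount of 0.1 and 1.14 with none. Ago2 in day 6 PGCLCs over ES cells came to -0.91 with a pseudocount of 5. In in vitro secondary follicle oocytes over reaggregated PGCLCs Xpo5 came to -1.0 without a pseudocount, -1.50 with quantile normalization and -1.34 with equal sums, and Ago2 to -1.17 with equal sums. The cause was not tested. No paired analysis was possible because the table holds 1 value per group, and leaving out replicates was not run for the same reason. Depth limits of low values, such as Tarbp2 in in vivo MII oocytes, cannot be given.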

Other observations

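Of the microRNA host transcripts 3 were in the table. H19, the host of miR-675, had 159 FPKM in day 6 PGCLCs against 0.0649 in ES cells, 43.7 after reaggregation and 32.4 in E12.5 PGCs, and at most 0.0303 in the 4 oocyte groups. Meg3 and Rian, neighbouring noncoding transcripts of an imprinted cluster that carries many microRNAs, had 75.1 and 40.2 FPKM in ES cells, 30.9 and 11.0 in day 6 PGCLCs, and 1.93 and 0.710 in reaggregated PGCLCs. In E12.5 PGCs Meg3 and Rian had 5.34 and 3.16 FPKM, so both were at least 2-fold lower in reaggregated PGCLCs than in E12.5 PGCs. In oocytes Meg3 had 3.52 FPKM in in vitro MII against 1.64 in in vitro secondary follicle oocytes, and 5.67 in in vivo MII against 0.214 in in vivo secondary follicle oocytes, while Rian had at most 0.769 in the 4 groups. Of the sensors of double-stranded RNA, the kinase gene Eif2ak2 had 0.100 FPKM in in vitro and 0.0698 in in vivo secondary follicle oocytes, and Ddx58 (RIG-I) 3.01 and 1.92.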
